A study of Mus musculus with 59 samples.

Results

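The 44 genes described here carry a mouse cell through its division cycle. They were chosen by symbol, with earlier results of these data known. All 44 were found among the 24972 genes of each of the 4 RNA-seq tables. They were read as 3 stages. The 6 genes of G1 and of entry into S phase were Ccnd1, Ccne1, Ccne2, Cdk2, E2f1 and E2f2. The 14 genes of S phase were Pcna, Mcm2, Mcm3, Mcm4, Mcm5, Mcm6, Mcm7, Cdc6, Cdt1, Gins2, Rrm1, Rrm2, Tyms and Tk1. The 24 genes of G2 and mitosis were Mki67, Top2a, Ccna2, Ccnb1, Ccnb2, Cdk1, Cdc20, Cdc25c, Plk1, Aurka, Aurkb, Bub1, Bub1b, Kif11, Kif20a, Kif23, Cenpe, Cenpf, Tpx2, Birc5, Nusap1, Prc1, Foxm1 and Ube2c.

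In a dividing cell, growth signals raise cyclin D, whose kinases phosphorylate the retinoblastoma protein and free the E2F factors, and these switch on cyclin E and the genes that license and copy DNA. Genes of G2 and mitosis come on later, through promoters that hold a cell cycle homology region (CHR) and are bound by the MuvB complexes and FOXM1, and the anaphase-promoting complex then destroys the cyclins. Adult liver and muscle fibers are for the most part out of the cycle, whereas cell lines cycle, and injured muscle draws in dividing satellite cells, fibroblasts and immune cells.

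The study tested inhibitors of ATP citrate lyase (Acly), the enzyme that makes cytosolic acetyl-CoA from citrate, in 59 libraries. In AML12 cells, a mouse hepatocyte line from animals that carried a human TGF alpha transgene, siRNA against Acly (siAcly) or a control siRNA (siC) was given 4 h after seeding. From 24 h later the cells were treated for 16 h with 1 mM hydroxycitrate (HC), 10 µM SB-204990 (SB) or 30 µM bempedoic acid (Bemp), or were left untreated (Ut), with 3 libraries in each of the 8 groups. Gastrocnemius was taken from wild-type male C57BL/6 mice of 6 ± 1 months whose left hind limb was injected with 100 µl of 10 µM cardiotoxin (CTX), a venom toxin that kills muscle fibers. These mice were then fed HC at 7.5 g per kg of diet (CTX-HC) or plain diet (CTX) until 2 or 30 days post injury (DPI), and a control group (C) had neither toxin nor HC, with 3 libraries in each of the 5 groups. The C and 2 DPI mice were drawn from the animals that had served as uninjected controls of the 30 DPI mice. Liver and soleus came from C57BL/6 mice fed standard diet with 7.5 g per kg HC (HC) or without it (Ut) from 20 to 41 weeks of age and fasted for 16 h, with 5 libraries in each group of each tissue. The study describes each gastrocnemius library as that of a single mouse. No source used here says that the AML12 libraries of a group came from separate cultures, so p values there measure only the spread between these samples, which may be technical.

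Values are the authors' normalized values, in which each library's gene counts were divided by a size factor of that library, and they are compared between libraries for the same gene and not between genes. The estimated depth was 7.31 to 16.3 M reads (M, 1e6) in AML12 cells, 16.0 to 34.9 M in gastrocnemius, 7.69 to 13.1 M in liver and 8.93 to 11.2 M in soleus. Fold changes are on the log2(value + 1) scale, which makes those of low genes smaller, and a gene was called when its p value, adjusted over all genes tested in its table (Benjamini-Hochberg, limma), was under 0.05. Where the mean of a gene is called higher or lower in a group, it is the mean on that scale. All 44 genes were tested in AML12 cells and gastrocnemius, 17 in liver and 12 in soleus, where the others had values under 10 in too many libraries. Labelled cell types were visible in their markers: the 5 hepatocyte markers read summed to 12821 or more in every AML12 library, and none of the muscle fiber lists passed a sum of 13.5 there. The 6 macrophage markers summed to 2075 to 4468 in the AML12 libraries, beside 706 to 3489 in C gastrocnemius, a table normalized separately. Of these markers, Adgre1 was at 0 in every library of each AML12 group but siC HC. Csf1r was at 0 in every library of siC SB and siAcly HC. In C gastrocnemius none of the 6 was at 0 in every library. Some libraries stood apart. Acly went against the label of siC Bemp 11, at 404 where siAcly libraries had 215 to 599 and each other siC library 2576 or more. Cyp1a1, which was 678 or more in the other 5 Bemp libraries and 495 or less in the other 17 libraries, was 236 in siC Bemp 11 and 917 in the library labelled siC Ut 13. In gastrocnemius the level of the 44 genes in CTX 2 DPI 57 lay within the range of C, and that in CTX-HC 30 DPI 62 lay above the other 5 libraries of 30 DPI. CTX-HC 2 DPI 60 also lay inside the range of C, at its top, with a level of 0.75 relative to the mean of 15 libraries where C ran between -1.40 and 0.75 and CTX 57 was at -0.33. All were kept in their labelled groups. Without siC Ut 13 and siC Bemp 11 together 0 of the 44 genes were called in each comparison of AML12 treatments, and the muscle counts are also given without CTX 57 and CTX-HC 62. Those libraries were singled out by the level of these same genes, so the values without them are a description and support nothing.

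The anchor genes, followed in every library, were 9: Ccnd1 (chromosome 7 from 144929931 to 144939925, GRCm38), Ccne1 (chromosome 7 from 38097984 to 38107534), Pcna (chromosome 2 from 132249162 to 132253314), Mcm2 (chromosome 6 from 88883474 to 88898780), Rrm2 (chromosome 12 from 24708241 to 24714146), Mki67 (chromosome 7 from 135689784 to 135716361), Top2a (chromosome 11 from 98992943 to 99024189), Ccnb1 (chromosome 13 from 100778650 to 100786570) and Cdk1 (chromosome 10 from 69335146 to 69352938). They stand for cyclin D1 and cyclin E1, the sliding clamp of the polymerases, a subunit of the replicative helicase, the small subunit of ribonucleotide reductase, the Ki-67 protein that coats mitotic chromosomes, topoisomerase II alpha, cyclin B1 and the kinase it activates.

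Promoter motifs are given by stage, as the results below are, and differences between stages were not tested. Promoters of 300 bases (250 before and 50 after the start) were read from RefSeq on GRCm38.p6 for the 34 genes with an entry. An E2F motif (TTTCCCGC, TTTGGCGC, TTTCGCGC or TTTGCCGC, on either strand, where matches may overlap) was present in 6 of 12 S phase promoters, 2 of 4 G1 promoters and 1 of 18 promoters of G2 and mitosis, against 2.32% of the 27025 promoters of that length in the table. The CHR motif (TTTGAA, either strand) was present in 13 of 18 promoters of G2 and mitosis, 1 of 12 of S phase and 0 of 4 of G1, against 18.1% of all promoters. All 13 of those promoters of G2 and mitosis also held a CCAAT box (CCAAT, either strand), a pair found in 7.12% of all promoters. A match is a description of the letters and does not show that a factor binds. Below, Cdc6 and Mcm5 show E2F matches, Cdk1 shows both kinds, and Ccnb2, Top2a and Aurka show CHR matches. Capitals mark the E2F and CHR motifs on either strand.
Cdc6: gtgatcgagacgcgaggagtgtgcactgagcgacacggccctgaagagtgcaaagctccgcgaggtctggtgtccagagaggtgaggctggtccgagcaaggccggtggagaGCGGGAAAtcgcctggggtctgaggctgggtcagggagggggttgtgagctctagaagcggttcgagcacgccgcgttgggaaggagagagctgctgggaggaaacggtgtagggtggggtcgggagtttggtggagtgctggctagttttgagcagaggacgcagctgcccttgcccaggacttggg
Mcm5: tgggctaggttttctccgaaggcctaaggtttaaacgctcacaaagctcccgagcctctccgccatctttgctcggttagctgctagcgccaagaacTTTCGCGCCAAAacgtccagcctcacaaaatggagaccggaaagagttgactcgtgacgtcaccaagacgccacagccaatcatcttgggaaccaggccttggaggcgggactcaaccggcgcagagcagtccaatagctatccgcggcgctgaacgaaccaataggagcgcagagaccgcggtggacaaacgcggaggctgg
Cdk1: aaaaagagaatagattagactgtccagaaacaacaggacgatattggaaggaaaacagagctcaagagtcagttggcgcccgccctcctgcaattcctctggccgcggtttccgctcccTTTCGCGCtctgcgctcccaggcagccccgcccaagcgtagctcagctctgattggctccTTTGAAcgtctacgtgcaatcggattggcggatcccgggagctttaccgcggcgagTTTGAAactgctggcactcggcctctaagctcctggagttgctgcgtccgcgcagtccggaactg
Ccnb2: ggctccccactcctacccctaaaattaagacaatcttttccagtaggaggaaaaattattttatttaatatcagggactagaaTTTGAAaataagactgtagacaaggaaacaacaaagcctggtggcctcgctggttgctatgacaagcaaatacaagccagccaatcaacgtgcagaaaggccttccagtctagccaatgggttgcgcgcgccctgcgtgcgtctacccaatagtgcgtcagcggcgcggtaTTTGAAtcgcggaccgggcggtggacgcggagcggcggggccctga
Top2a: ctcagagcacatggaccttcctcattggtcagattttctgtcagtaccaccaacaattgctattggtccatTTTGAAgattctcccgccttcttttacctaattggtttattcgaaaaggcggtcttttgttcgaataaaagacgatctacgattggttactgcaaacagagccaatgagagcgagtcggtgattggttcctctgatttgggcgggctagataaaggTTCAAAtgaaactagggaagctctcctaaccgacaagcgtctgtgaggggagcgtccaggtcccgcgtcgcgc
Aurka: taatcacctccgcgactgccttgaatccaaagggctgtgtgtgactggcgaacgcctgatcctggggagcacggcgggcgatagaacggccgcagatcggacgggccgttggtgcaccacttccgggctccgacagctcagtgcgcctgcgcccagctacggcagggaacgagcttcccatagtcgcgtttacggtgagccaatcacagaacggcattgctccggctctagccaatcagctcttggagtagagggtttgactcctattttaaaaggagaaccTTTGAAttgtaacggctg
These lie on GRCm38.p6 at chr11:98907901-98908200, plus strand (Cdc6, which loads the helicase), chr8:75109259-75109558, plus strand (Mcm5, a helicase subunit), chr10:69352863-69353162, minus strand (Cdk1), chr9:70421505-70421804, minus strand (Ccnb2, a B-type cyclin), chr11:99024140-99024439, minus strand (Top2a) and chr2:172370521-172370820, minus strand (Aurka, a kinase of the spindle poles). Each is written 5′ to 3′ on its gene's strand.

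Among the AML12 comparisons, members of the 44 genes were called between 2 series of library numbers, with group in the fit. In the treatment comparisons below, fitted with no number term, 0 of the 44 were called. With the number series and the remainder of the number on division by 3 as covariates, 4 of the 44 were called in the mean of siAcly against siC over 4 treatments (Aurka, Cdk1, E2f1 and Ube2c). The remainder was noticed from the levels of these same genes, so that count is a description and supports nothing. The libraries are named by number, and the numbers fall into a series of 1 to 23 (17 libraries) and a series of 81 to 87 (7 libraries); the labels do not say what the numbers stand for. In the 81 to 87 libraries 24 of the 44 genes rose and 0 fell, when group was held constant in the fit, against 17.1% of all genes tested called higher and 18.9% called lower. By stage, 5 of 6 G1 genes, 12 of 14 S phase genes and 7 of 24 genes of G2 and mitosis rose, with median log2 fold changes of 0.59, 0.76 and 0.41 over each whole list, against a median that rounds to 0 over all genes. Leaving out any 1 library gave 19 to 28 called genes, all higher.

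Among G1 genes, Ccne1 had values of 424 to 521 (median 499) in the 7 libraries of 81 to 87, against 147 to 278 (median 201) in the 17 of 1 to 23 (log2 fold change 1.21, SE 0.11, adjusted p = 1.74e-07). No library of 1 to 23 reached the lowest of 81 to 87. Ccnd1 had 23336 to 32322 (median 26929) in 81 to 87, against 8042 to 25892 (median 17430.3) in 1 to 23 (log2 fold change 0.77, SE 0.19, adjusted p = 0.00369). The overlap came from 1 library, siAcly Ut 15, which had the highest Ccnd1 value of 1 to 23. E2f1, an E2F factor, had 789 to 1051 (median 926) in 81 to 87, against 381 to 839 (median 539.5) in 1 to 23 (log2 fold change 0.68, SE 0.12, adjusted p = 0.000252).

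Of the 14 S phase genes 10 did not overlap between the series. Of these, Mcm6 did not pass the test (log2 fold change 0.33, SE 0.13, adjusted p = 0.0524). The helicase genes Mcm4 and Gins2 were called and overlapped. Mcm5 had 3694 to 5100.0 (median 4318) in 81 to 87, against 985 to 2610.2 (median 2203) in 1 to 23 (log2 fold change 1.06, SE 0.13, adjusted p = 4.1e-06). Mcm2 had 4485 to 5777 (median 4842) in 81 to 87, against 1423 to 3319 (median 2766) in 1 to 23 (log2 fold change 0.96, SE 0.14, adjusted p = 2.86e-05). Cdc6 had 497 to 674 (median 570.0) in 81 to 87, against 183 to 407 (median 302) in 1 to 23 (log2 fold change 0.95, SE 0.13, adjusted p = 1.62e-05). None of the 3 overlapped. Of all 44 genes, 13 lay wholly above the 1 to 23 libraries in 81 to 87 (Ccne1, Mcm2, Mcm3, Mcm5, Mcm6, Mcm7, Cdc6, Cdt1, Rrm1, Rrm2, Tk1, Kif23 and Foxm1) and 0 lay wholly below, against 2.27% of all genes tested above and 3.22% below. Rrm2 had 5346 to 6448 (median 5804) in 81 to 87, against 1058 to 4121 (median 3472) in 1 to 23 (log2 fold change 0.90, SE 0.20, adjusted p = 0.00151). The clamp gene Pcna stood out from this list, with 2233 to 2748 (median 2436) in 81 to 87, against 1109.6 to 3112 (median 1907) in 1 to 23 (log2 fold change 0.23, SE 0.18, adjusted p = 0.326), and was not called. Its values in 81 to 87 lay inside the range of 1 to 23.

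Of the genes of G2 and mitosis, the furthest of the 7 called were Foxm1, the factor that drives mitotic genes (2903 to 3525 (median 3101) in 81 to 87, against 523 to 2463 (median 2232) in 1 to 23; log2 fold change 0.69, SE 0.18, adjusted p = 0.00656), and Plk1, a kinase of mitotic entry (log2 fold change 0.68, SE 0.20, adjusted p = 0.0115). Kif23, a motor of cytokinesis, also rose without overlap (log2 fold change 0.63, SE 0.13, adjusted p = 0.00109). The anchors of this stage were not called. Mki67 had 1940.2 to 4078 (median 2230.3) in 81 to 87, against 370.5 to 4055 (median 2089) in 1 to 23 (log2 fold change 0.54, SE 0.29, adjusted p = 0.15). Cdk1 had 2015 to 2404 (median 2282) in 81 to 87, against 844 to 2565 (median 1934) in 1 to 23 (log2 fold change 0.27, SE 0.15, adjusted p = 0.164). Both overlapped, as did Top2a (log2 fold change 0.45, SE 0.19, adjusted p = 0.066) and Ccnb1 (log2 fold change 0.33, SE 0.18, adjusted p = 0.164). The spindle checkpoint kinase gene Bub1 ran the other way without passing the test (log2 fold change -0.32, SE 0.22, adjusted p = 0.271). Whether the stages themselves differed was not tested.

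Each group other than siC Ut holds 1 library of 81 to 87, so the difference can be read inside 7 groups. The 81 to 87 library was above the mean of the other 2 in all 7 groups for 4 of 6 G1 genes, 13 of 14 S phase genes and 10 of 24 genes of G2 and mitosis. For Ccne1 the difference ran between 1.00 and 1.36 on the log2 scale across the 7 groups, and for Mki67 between -0.42 and 1.65. Depth and marker sums moved with the series: the estimated depth was 7.31 to 14 M reads in 81 to 87, against 9.94 to 16.3 M in 1 to 23, and the 5 hepatocyte markers summed to 12821 to 18028 in 81 to 87, against 15450.4 to 47881 in 1 to 23, where 4 of the 5 fell (Alb, Apoa1, Ttr and Hnf4a). The 6 macrophage markers, of which Adgre1 was mostly at 0, summed to 2075 to 2593 in 81 to 87, against 2524 to 4468 in 1 to 23. Their part in the result was not tested.

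**Figure D1:**
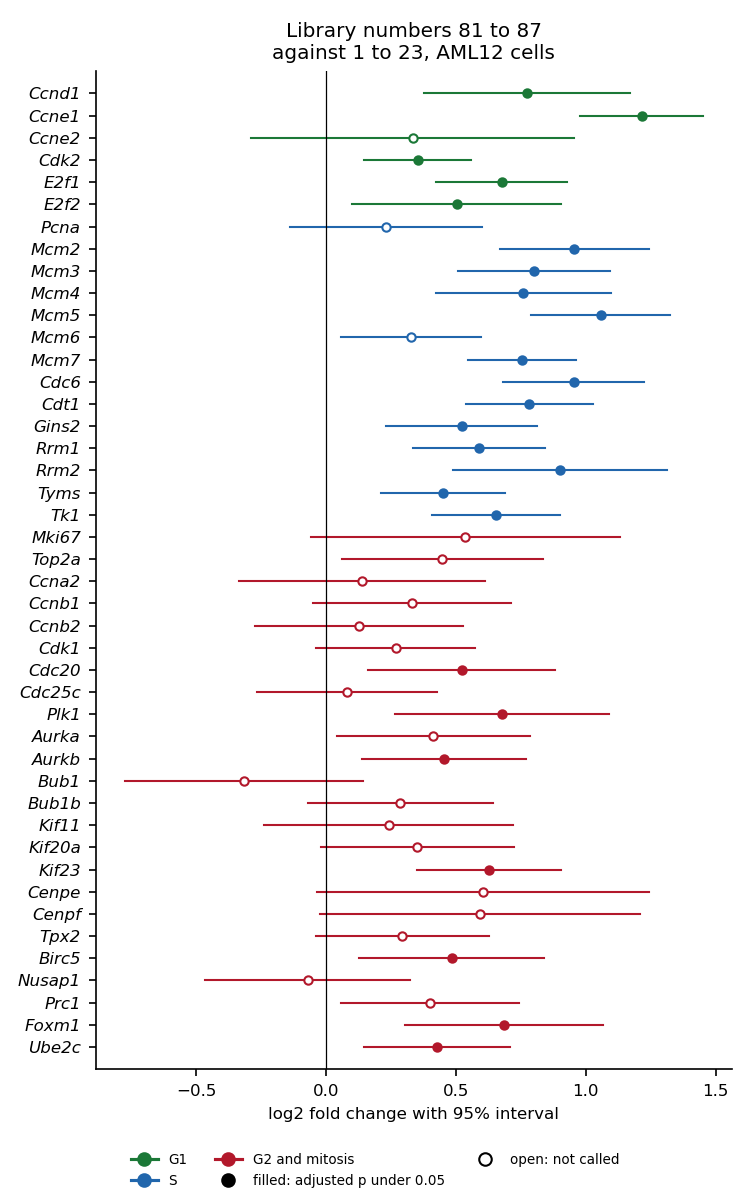
Log2 fold change on the x axis, with its 95% interval, of the 44 genes (y axis) between AML12 libraries numbered 81 to 87 and those numbered 1 to 23, with group in the fit; colours give the stage and filled points the called genes. G1 and S phase genes lie right of 0, with Ccne1 furthest at 1.21, and 7 of the 24 genes of G2 and mitosis are filled.

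The cell cycle genes outside the 44 were read from lists of their own, and their counts stand beside the 17.1% of all genes called higher and the 18.9% called lower. Among other replication genes 13 of 25 rose in 81 to 87, against 0 that fell, with Uhrf1, which copies DNA methylation (log2 fold change 1.03, SE 0.11, adjusted p = 1.03e-06), and Pole, a replicative polymerase (log2 fold change 0.99, SE 0.15, adjusted p = 4.88e-05), furthest. Among other G1 regulators 6 of 10 rose and 0 fell, led by E2f7, an E2F repressor (log2 fold change 1.15, SE 0.16, adjusted p = 1.62e-05), and Mybl2, the MuvB partner (log2 fold change 0.89, SE 0.20, adjusted p = 0.00177). Among other mitotic genes 9 of 32 rose and 0 fell, led by Espl1, the separase (log2 fold change 0.79, SE 0.23, adjusted p = 0.0106), and Anln (log2 fold change 0.69, SE 0.21, adjusted p = 0.017). Of the 10 CDK inhibitors and pocket proteins, Rbl1, a retinoblastoma relative, rose (log2 fold change 0.70, SE 0.17, adjusted p = 0.00406) and Cdkn1c, a CDK inhibitor, fell (log2 fold change -1.66, SE 0.34, adjusted p = 0.000937).

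Knockdown of Acly was then compared with control siRNA. Acly itself had 309, 376 and 215 in the siAcly Ut libraries 84, 14 and 15, against 2750.4, 3804 and 3263 in the siC Ut libraries 1, 2 and 13 (log2 fold change -3.47, SE 0.48, adjusted p = 0.0065). Of the 44 genes 0 were called by limma in siAcly Ut against siC Ut, where 0.138% of all genes were called higher and 0.0488% lower, and 4 passed an unadjusted p of 0.05 (Ccnd1 higher, and Cenpf, Kif11 and Cdc25c lower), against 10.6% of all genes higher and 8.38% lower. Medians over the lists were 0.15 for G1, 0.15 for S phase and -0.50 for G2 and mitosis, and -0.03 over all genes.

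Ccnd1 had 30377, 13416 and 25892 in siAcly Ut 84, 14 and 15, against 17430.3, 8555 and 8042 in siC Ut 1, 2 and 13 (log2 fold change 1.05, SE 0.45, adjusted p = 0.221). The groups overlapped, since siAcly Ut 14 lay under siC Ut 1. Cenpf, a kinetochore protein gene, had 245, 209.5 and 60.2 in siAcly Ut, against 626, 140.0 and 426 in siC Ut (log2 fold change -1.19, SE 0.57, adjusted p = 0.261). Kif11, the motor that separates the spindle poles, had 949, 686 and 191 in siAcly Ut, against 1413, 649 and 895 in siC Ut (log2 fold change -0.91, SE 0.42, adjusted p = 0.243). In both genes library 15 was the lowest of the 6. Of the S phase genes, those furthest from 0 were Cdt1, which licenses origins (log2 fold change 0.44, SE 0.37, adjusted p = 0.527), and Gins2, a subunit of the active helicase (log2 fold change 0.28, SE 0.32, adjusted p = 0.644). In G1, E2f1 came after Ccnd1 (log2 fold change 0.49, SE 0.34, adjusted p = 0.431).

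Library siAcly Ut 15 was the lowest of the 24 in S phase and mitosis. Its S phase genes lay at a median of -1.03 and its genes of G2 and mitosis at -1.82 on the log2 scale, relative to the mean of the 24 libraries, where siAcly Ut 84 and 14 lay at 0.54 and -0.29 for S phase and at 0.17 and -0.02 for G2 and mitosis. Mki67 had 1940.2, 1023 and 370.5 in siAcly Ut 84, 14 and 15, against 3189, 623 and 1977 in siC Ut. Top2a had 4244, 2240.2 and 935 in siAcly Ut, against 4757, 2336 and 2993 in siC Ut. Cdk1 had 2343, 2011 and 844 in siAcly Ut, against 1968, 1298 and 1464 in siC Ut. In each, library 15 had the lowest value and the other 2 siAcly Ut libraries lay among or above siC Ut, apart from siAcly Ut 14 for Top2a, which lay just under it. Ccnb1 (2003, 1612 and 449 in siAcly Ut, against 1888, 1288 and 1241 in siC Ut) and Rrm2 (6448, 3648 and 1058 in siAcly Ut, against 3715, 2315 and 1846 in siC Ut) did the same. Without library 15 the median of G2 and mitosis in siAcly Ut against siC Ut was 0.17, that of S phase 0.51 and that of G1 0.53, and 0 genes were called. The siAcly Ut group then held 84, of the 81 to 87 series, and 14, while siC Ut has no library of that series. With the number series as a covariate and all libraries kept, those medians were -0.59 for G2 and mitosis, -0.13 for S phase and -0.11 for G1.

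Among the CDK inhibitors 2 rose where the 44 genes were not called. Cdkn1a, which encodes p21, had 5051, 3358 and 11695 in siAcly Ut 84, 14 and 15, against 2074, 1967 and 1802 in siC Ut 1, 2 and 13 (log2 fold change 1.58, SE 0.32, adjusted p = 0.0481). Cdkn2b, which encodes p15, had 242, 266 and 738 in siAcly Ut, against 153, 103 and 115 in siC Ut (log2 fold change 1.56, SE 0.31, adjusted p = 0.0481). Neither gene overlapped between the groups, and library 15 was highest in both. The siC Ut group has no library of the number series to which siAcly Ut 84 belongs. The calls of genes outside the 44 in this paragraph come from fits with all libraries and no covariate. Whether they hold without library 15, without siC Ut 13 (a doubtful label) or with the number series as a covariate was not tested. Averaged over the 4 treatments, siAcly against siC, Cdkn1a (log2 fold change 0.90, SE 0.16, adjusted p = 0.00372), Cdkn2b (log2 fold change 0.73, SE 0.16, adjusted p = 0.0111), Ccnd3, another D-type cyclin (log2 fold change 0.45, SE 0.09, adjusted p = 0.00737), and Cdk6, its kinase (log2 fold change 0.44, SE 0.12, adjusted p = 0.0474), rose. In that comparison limma called 0 of the 44 genes, against 2.73% of all genes called higher and 2.03% lower. At an unadjusted p of 0.05, 0 of the 44 passed, against 2754 of the 12296 genes tested, in either direction. The count was 4 once the number series and the remainder of the number were covariates (Aurka, Cdk1, E2f1 and Ube2c), a setting drawn from the values of these genes. The shares of all genes just given belong to the fit without covariates and cannot be set beside it. The furthest of the 44 were Ccnd1 in G1 (log2 fold change 0.40, SE 0.23, adjusted p = 0.307), Cdt1 in S phase (log2 fold change 0.18, SE 0.19, adjusted p = 0.613) and Ube2c, the ubiquitin-conjugating enzyme of the anaphase-promoting complex (log2 fold change 0.28, SE 0.15, adjusted p = 0.255). Under HC, SB and Bemp taken singly, siAcly against siC gave 0 called, where 0.00813%, 0% and 0% of all genes were called. Each gave 0 of the 44 at an unadjusted p of 0.05, against 655, 374 and 484 of the 12296 genes tested.

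**Figure D2:**
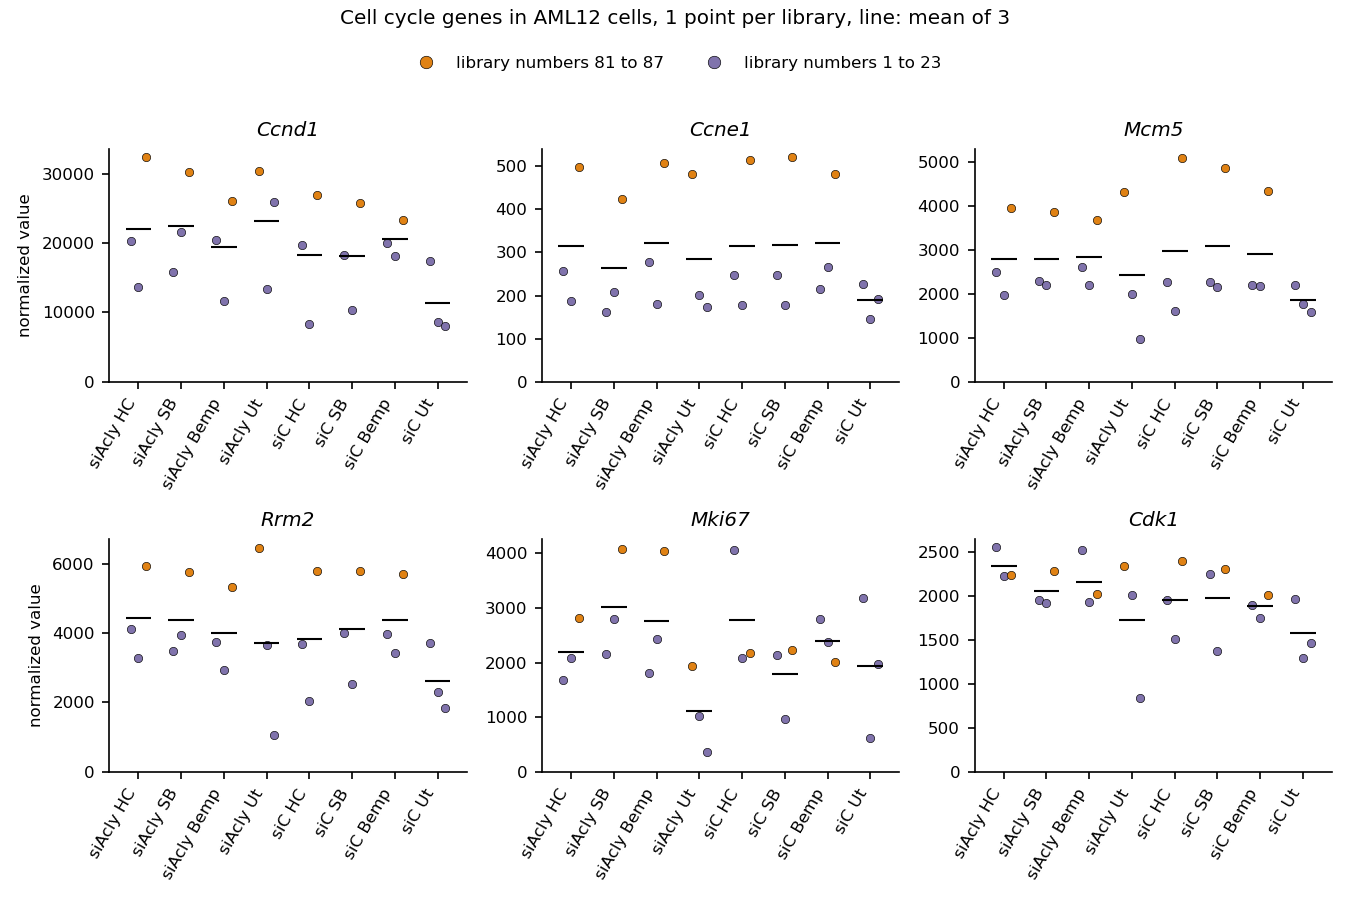
Normalized value (y axis, from 0) of 6 genes in the 8 AML12 groups (x axis), 1 point per library and a line at the mean of 3, coloured by number series. For Ccne1, Mcm5 and Rrm2 every library of 81 to 87 lies above every library of 1 to 23, and for Mki67 and Cdk1 the series overlap.

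The inhibitors were compared with untreated cells under each siRNA. In siC cells 43, 41 and 42 of the 44 genes had a higher mean under HC, SB and Bemp than in siC Ut. The S phase medians were 0.46, 0.56 and 0.59, and limma called 0 of the 44 and 0% of all genes. At an unadjusted p of 0.05, 0 of the 44 passed, against 42, 70 and 240 of the 12296 genes tested. The 3 comparisons share the siC Ut libraries, and siC Ut is the group with no library of 81 to 87. With the number series as a covariate those S phase medians were 0.18, 0.30 and 0.32. Ccne1 shows the layout: it had 248, 179 and 515 in siC HC 7, 8 and 82, 249, 178 and 521 in siC SB 4, 5 and 81 and 216, 267 and 482 in siC Bemp 11, 10 and 83, against 228, 147 and 192 in siC Ut 1, 2 and 13. The highest value in each treated group belonged to its 81 to 87 library. In siC Bemp 5 genes (Ccnd1, E2f1, Mcm3, Cdc6 and Aurka) lay wholly above siC Ut, against 4.46% of all genes.

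Mcm2 behaved alike, with 3088, 1778 and 5777 in siC HC, 3319, 2513 and 5707 in siC SB and 2884, 3283 and 4715 in siC Bemp, against 3031, 2043 and 1795 in siC Ut. Pcna had 2458, 1499 and 2236 in siC HC, 2861, 1337 and 2436 in siC SB and 2591, 2292 and 2233 in siC Bemp, against 2582, 1109.6 and 1362 in siC Ut. For Pcna the 81 to 87 library was the highest in none of the 3. The furthest genes of the 3 comparisons were Ccnd1 in G1 (0.63 under HC, 0.67 under SB and 0.94 under Bemp), Mcm4, Mcm2 and Rrm2 in S phase (0.54 under HC, 0.70 under SB and 0.76 under Bemp), and Cenpe, a kinetochore motor, Kif23 and Cenpe in G2 and mitosis (0.81 under HC, 0.47 under SB and 0.59 under Bemp), all on the log2 scale. None of them was called.

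In siAcly cells the mitotic genes had the higher means under each inhibitor, against a siAcly Ut group that holds library 15. All 24 genes of G2 and mitosis had a higher mean in siAcly HC, siAcly SB and siAcly Bemp than in siAcly Ut, with medians of 0.71, 0.75 and 0.67, while limma called 0 of the 44 genes, as of all genes (0%), in each. At an unadjusted p of 0.05, 11, 14 and 10 of the 44 were higher and 0 lower, against 1.39%, 6.82% and 1.35% of all genes higher. Cenpf had 274, 371 and 682 in siAcly HC 19, 20 and 86 (log2 fold change 1.49, SE 0.57, adjusted p = 1), 374, 481 and 796 in siAcly SB 17, 16 and 85 (log2 fold change 1.83, SE 0.57, adjusted p = 0.331) and 266, 445 and 962 in siAcly Bemp 22, 23 and 87 (log2 fold change 1.72, SE 0.57, adjusted p = 0.999). Every one of these lay above the 3 siAcly Ut libraries. In all, 5 genes lay wholly above siAcly Ut under HC, 7 under SB and 4 under Bemp, against 3.29%, 8.09% and 2.49% of all genes. Mki67 had 1676, 2080.1 and 2810.3 in siAcly HC, 2157, 2802 and 4078 in siAcly SB and 1818, 2434 and 4044 in siAcly Bemp, and overlapped with siAcly Ut 84 under HC and Bemp. Without library 15 the 3 medians of G2 and mitosis were 0.13, 0.09 and 0.05, and 0 genes were called.

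For S phase and G1 the same 3 comparisons gave smaller values. The S phase medians were 0.39, 0.41 and 0.32 under HC, SB and Bemp, and -0.05, -0.06 and -0.09 without library 15. The G1 gene furthest from 0 was Ccne2, the second cyclin E, in all 3 (1.11, 1.30 and 0.91). The difference between the inhibitor effects under siAcly and under siC was tested as an interaction. It gave 0 called genes for HC, SB and Bemp, as for all genes (0%), with 0, 4 and 0 of the 44 at an unadjusted p of 0.05. For SB 4.13% of all genes were higher at that p, and for HC and Bemp 63 and 166 of the 12296 genes tested passed it. The 4 were among the genes of G2 and mitosis, of which Cenpf was furthest (log2 fold change 2.02, SE 0.80, adjusted p = 0.56, 95% interval 0.34 to 3.69).

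In gastrocnemius most of the 44 genes had higher means 2 days after cardiotoxin and lower means again at 30 days, and the rise passed the test for 5 genes in mice given HC and for 0 in mice on plain diet. RNA came from whole muscle, so more cells of a dividing type and more RNA per cell cannot be told apart, here or below. In CTX-HC 2 DPI against C 5 of the 44 genes rose and 0 fell, where 5.34% of all genes were called higher and 4.59% lower. Medians over the lists were 1.48 for G1, 1.59 for S phase and 2.36 for G2 and mitosis, against 0.02 over all genes. In CTX 2 DPI against C, which shares the C libraries, the medians were 0.66, 0.63 and 1.19, and limma called 0 of the 44 and 0% of all genes, with 1 of the 44 (Cdt1, 2.15 on the log2 scale) higher at an unadjusted p of 0.05, against 7.25% of all genes. Without CTX 57 and CTX-HC 62 the count stayed at 0 and the median of G2 and mitosis in CTX 2 DPI against C was 1.80.

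The called genes were Ccne1 and 4 genes of S phase. Ccne1 had 75.3, 56.4 and 38.4 in CTX-HC 2 DPI 58, 59 and 60 and 23.4, 42.4 and 10.5 in CTX 2 DPI 55, 56 and 57, against 12.2, 2.62 and 16.3 in C replicates 1, 2 and 3 (CTX-HC against C, log2 fold change 2.57, SE 0.73, adjusted p = 0.0446). Pcna had 969.8, 609 and 561 in CTX-HC 2 DPI and 398, 424 and 352 in CTX 2 DPI, against 332, 308 and 405 in C (CTX-HC against C, log2 fold change 1.00, SE 0.21, adjusted p = 0.0226). In both genes all 3 CTX-HC libraries lay above all 3 C libraries, while CTX 2 DPI overlapped with C. Rrm2 had 667, 468 and 212 in CTX-HC 2 DPI and 192, 486 and 97.4 in CTX 2 DPI, against 84.1, 37.7 and 146 in C (CTX-HC against C, log2 fold change 2.37, SE 0.69, adjusted p = 0.0469). The helicase subunits Mcm6 (602, 561 and 317 in CTX-HC 2 DPI, against 103, 61.5 and 167 in C; log2 fold change 2.21, SE 0.59, adjusted p = 0.0381) and Mcm3 (log2 fold change 1.71, SE 0.48, adjusted p = 0.0428) also rose. Mcm2, of the same ring, had 466, 384 and 305 in CTX-HC 2 DPI and 247, 282 and 229 in CTX 2 DPI, against 267, 302 and 367 in C (CTX-HC against C, log2 fold change 0.29, SE 0.21, adjusted p = 0.314). It overlapped with C in both.

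Genes of G2 and mitosis had larger fold changes and a wider spread, and 0 of 24 were called in CTX-HC 2 DPI against C, with 15 of the 24 higher at an unadjusted p of 0.05, against 18.9% of all genes. Cdc20, the activator of the anaphase-promoting complex, was furthest, with 184, 205 and 66.6 in CTX-HC 2 DPI and 64.6, 109 and 37.9 in CTX 2 DPI, against 20.7, 2.65 and 42.8 in C (CTX-HC against C, log2 fold change 3.18, SE 1.09, adjusted p = 0.0697). Mki67 had 1153, 779 and 359 in CTX-HC 2 DPI and 422, 674 and 156 in CTX 2 DPI, against 186, 29.4 and 441 in C (CTX-HC against C, log2 fold change 2.34, SE 1.16, adjusted p = 0.161). C replicate 3 was above CTX-HC 60, and C replicate 2 was the lowest of the 9. For Top2a, too, C replicate 3 was above CTX-HC 60, with 815, 668 and 222 in CTX-HC 2 DPI and 289, 436 and 94.8 in CTX 2 DPI, against 88.1, 27.1 and 303 in C (CTX-HC against C, log2 fold change 2.44, SE 1.26, adjusted p = 0.177). Ccnb1 had 168, 158 and 39.2 in CTX-HC 2 DPI and 55.6, 79.8 and 20.5 in CTX 2 DPI, against 19.3, 3.72 and 38.9 in C (CTX-HC against C, log2 fold change 2.71, SE 1.22, adjusted p = 0.13). Its lowest CTX-HC library lay just above its highest C library. Foxm1, the second furthest, was not called (log2 fold change 2.98, SE 1.18, adjusted p = 0.0971).

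Among the 44 genes 3 had lower means in CTX-HC 2 DPI than in C: Ccne2 (94.0, 103 and 96.2 in CTX-HC 2 DPI, against 119, 157 and 108 in C), Aurka (167, 189.8 and 129.6 in CTX-HC 2 DPI, against 249, 238 and 194 in C) and Rrm1, the large subunit of ribonucleotide reductase (746, 783 and 544 in CTX-HC 2 DPI, against 751, 816 and 812 in C). None was called, with log2 fold changes of -0.37 for Ccne2 and -0.22 for Rrm1. Ccne2 and Aurka lay wholly below C and 17 genes wholly above it, against 25.2% and 25.7% of all genes.

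The count of 5 depended on single libraries. It was 0 without C replicate 1, 0 without C replicate 2, 1 without C replicate 3, 0 without CTX-HC 58, 0 without CTX-HC 59 and 10 without CTX-HC 60. C replicate 2 and CTX 30 DPI replicate 2 are numbered apart from the other 13 libraries, which run between 50 and 63. With that split as a covariate the count was 0, and in the libraries 50 to 63 alone it was 0. Without CTX 57 and CTX-HC 62, which are not in the 2 groups compared and enter only the shared estimate of the spread, it was 21, all higher.

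**Figure D3:**
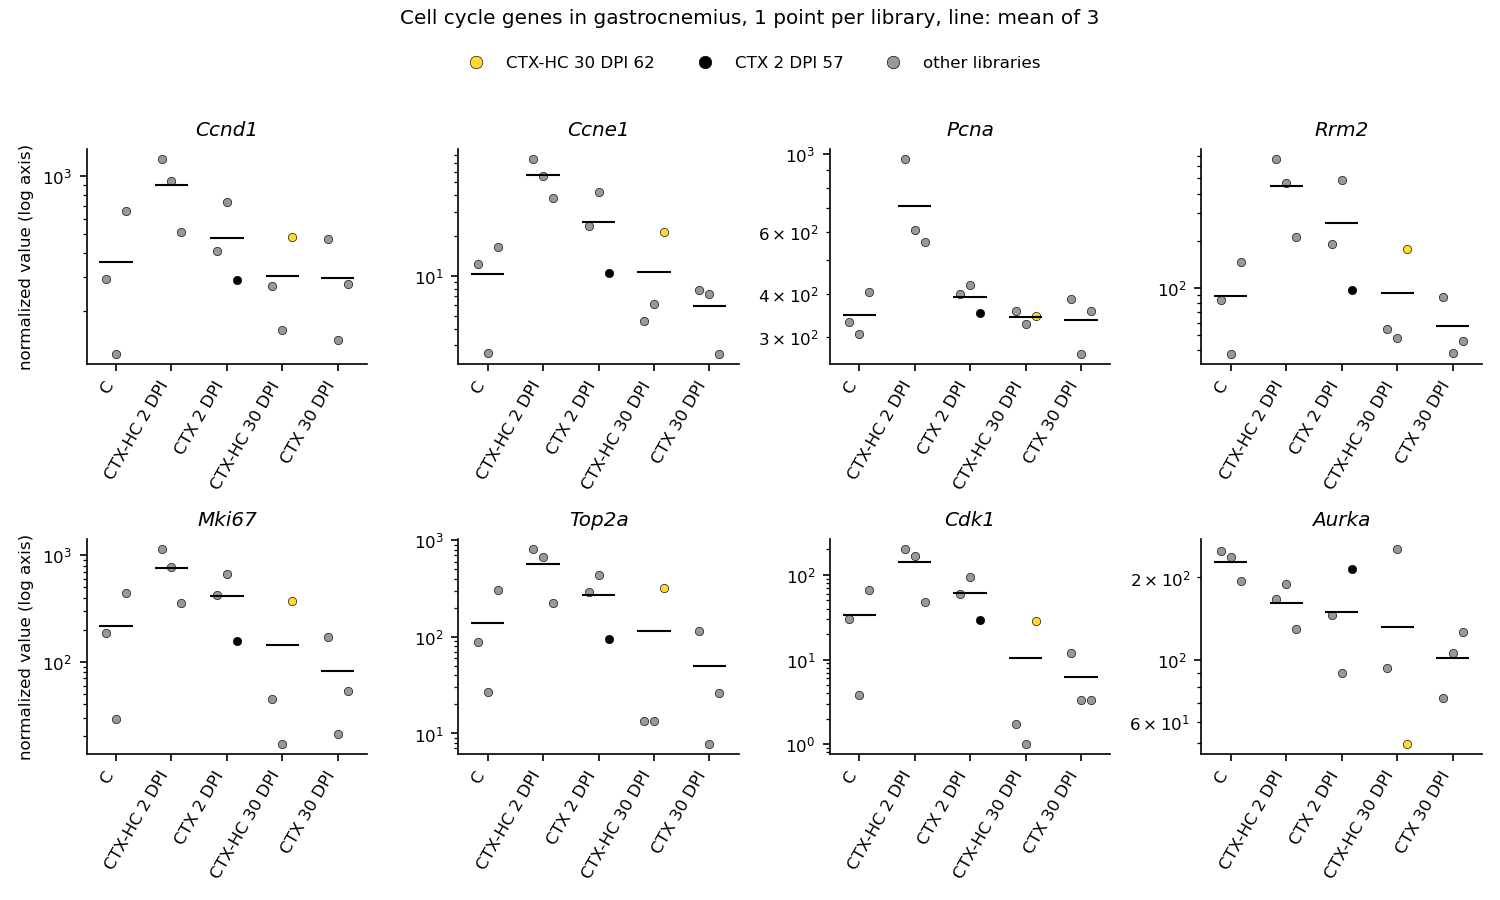
Normalized value on a log axis (y) of 8 genes in the 5 gastrocnemius groups (x, with C at the low end of time), 1 point per library and a line at the mean of 3; 2 libraries that stood apart are coloured. Pcna in CTX-HC 2 DPI (561 to 969.8) lies above every other library, and CTX-HC 30 DPI 62 lies above the other 2 libraries of its group in Mki67, Top2a and Cdk1.

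HC was compared directly with plain diet at 2 DPI. In CTX-HC 2 DPI against CTX 2 DPI 43 of 44 genes had a higher mean, with medians of 0.91 for G1, 0.88 for S phase and 1.08 for G2 and mitosis, and limma called 0 of them, with 0% of all genes called and 5 of the 44 higher at an unadjusted p of 0.05, against 2.79% of all genes. The groups did not overlap for 5 genes, Ccne2, Pcna, Mcm2, Mcm6 and Tk1, all higher in CTX-HC, against 6.18% of all genes. Pcna differed by 0.83 (SE 0.21, adjusted p = 0.619), with a 95% interval of 0.36 to 1.29. Tk1, thymidine kinase, had 132, 111 and 58.7 in CTX-HC 2 DPI, against 53.1, 42.2 and 35.5 in CTX 2 DPI (log2 fold change 1.13, SE 0.41, adjusted p = 0.662). The furthest by fold change were Ccne1 in G1 (log2 fold change 1.27, SE 0.73, adjusted p = 0.662), Mcm5 in S phase (log2 fold change 1.46, SE 0.90, adjusted p = 0.663) and Nusap1, a spindle protein gene, in G2 and mitosis (log2 fold change 1.46, SE 0.90, adjusted p = 0.662). Without CTX 57 and CTX-HC 62 the 3 medians were 0.66, 0.55 and 0.49, and 0 genes were called.

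Markers of the cells that enter injured muscle were read beside these genes, and not every list moved with them. The 5 lymphocyte markers overlapped with C in both injured groups. They summed to 3.61 to 13.7 in CTX-HC 2 DPI and 2.71 to 12.7 in CTX 2 DPI, against 3.74 to 5.50 in C. The 6 macrophage markers summed to 5354 to 23688 in CTX-HC 2 DPI and 1813 to 9738 in CTX 2 DPI, against 706 to 3489 in C, and none of them was at 0. The 5 neutrophil markers summed to 323 to 1214 in CTX-HC 2 DPI and 26.3 to 393 in CTX 2 DPI, against 6.95 to 40.7 in C, with S100a9 and Ly6g at 0 in every C library. The 5 satellite cell and myoblast markers summed to 2462 to 4052 in CTX-HC 2 DPI and 2161 to 10975 in CTX 2 DPI, against 1603 to 2471 in C. Their median was 3402 in CTX-HC 2 DPI, below the 4738 of CTX 2 DPI. The 4 fibroblast markers summed to 21055 to 82271 in CTX-HC 2 DPI and 21469.9 to 47393 in CTX 2 DPI, against 9008 to 12436 in C. The 4 fast fiber markers summed to 773161 to 1.14e+06 in CTX-HC 2 DPI and 1.14e+06 to 2.19e+06 in CTX 2 DPI, against 2.14e+06 to 3.24e+06 in C. No CTX-HC library reached the lowest C library. The 4 slow fiber markers summed to 301 to 553 in CTX-HC 2 DPI and 1886 to 3706 in CTX 2 DPI, against 1605 to 10564 in C. At 30 DPI the slow fiber sums were 10140 to 57186 in CTX-HC and 11817 to 48689 in CTX. The 4 endothelial markers overlapped with C. They summed to 3557 to 5650 in CTX-HC 2 DPI and 3942.5 to 4831 in CTX 2 DPI, against 4231 to 8007 in C. Library by library, the level of G2 and mitosis relative to the mean of 15 libraries was 2.80, 2.39 and 1.03 in CTX-HC 58, 59 and 60, where the macrophage markers summed to 23688, 17429 and 5354. It was 1.14, 1.89 and -0.11 in CTX 55, 56 and 57, where they summed to 9738, 6373 and 1813, and -0.08, -1.76 and 1.16 in C replicates 1, 2 and 3, where they summed to 3489, 706 and 2811. The order of the sums was that of the levels within CTX-HC 2 DPI but not within CTX 2 DPI or C. Their part in the results was not tested.

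**Figure D4:**
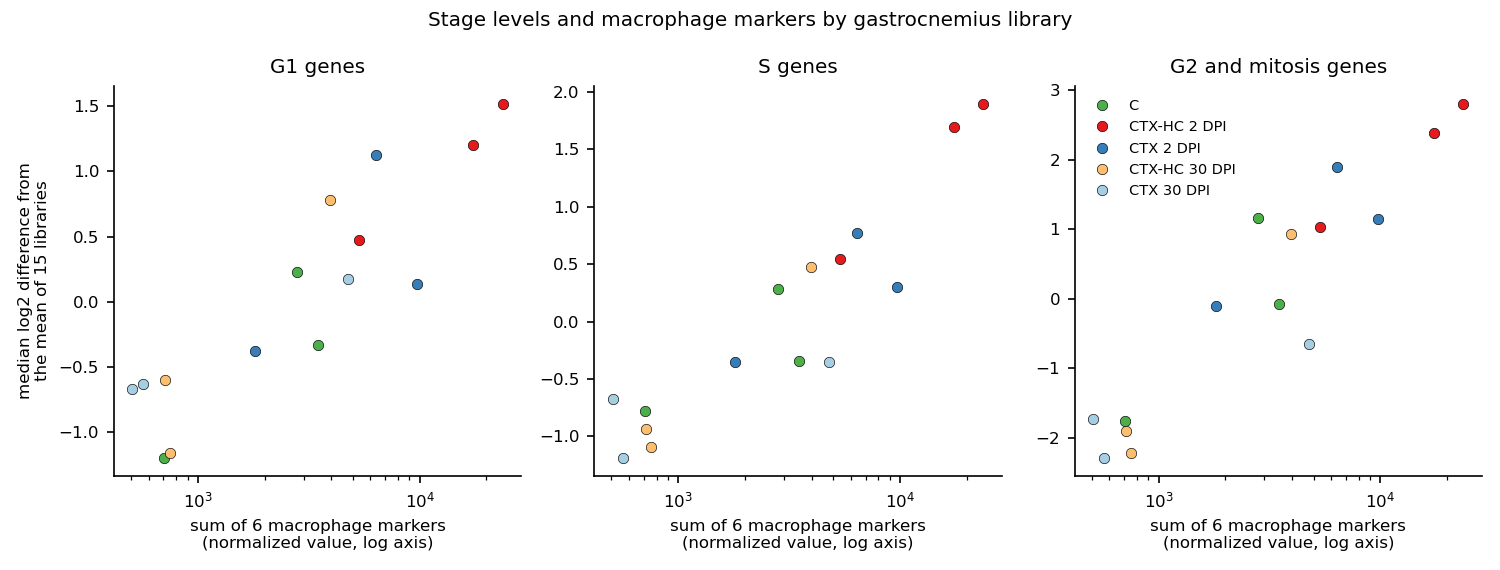
Median log2 difference of the genes of each stage from the mean of 15 gastrocnemius libraries (y axis) against the sum of 6 macrophage markers (x axis, log), 1 point per library, coloured by group. The 3 CTX-HC 2 DPI libraries have sums of 5354 or more, and the level of G2 and mitosis spans the range from -2.30 in CTX 30 DPI to 2.80 in CTX-HC 2 DPI.

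The course from 2 to 30 days was compared next. In CTX-HC 30 DPI against CTX-HC 2 DPI 15 of the 44 genes fell and 0 rose, against 5.54% of all genes called lower and 4.2% higher. They were Ccne1 in G1, 7 of 14 S phase genes (Gins2, Cdc6, Rrm2, Mcm6, Mcm3, Tk1 and Pcna) and 7 of 24 genes of G2 and mitosis (Cdk1, Aurkb, Ccnb2, Plk1, Bub1, Ccna2 and Prc1). Cdk1 had 1.75, 0.995 and 28.7 in CTX-HC 30 DPI 63, 61 and 62, against 204, 169.8 and 47.7 in CTX-HC 2 DPI 58, 59 and 60 (log2 fold change -4.45, SE 1.10, adjusted p = 0.0291). Aurkb, the kinase of the chromosomal passenger complex, had 4.60, 1.01 and 51.1 in CTX-HC 30 DPI, against 193, 162 and 84.7 in CTX-HC 2 DPI (log2 fold change -4.05, SE 1.15, adjusted p = 0.0444). In both genes libraries 63 and 61 were near 0 and library 62 was the highest of the 3, below the 2 DPI range.

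In S phase, Gins2 had 0, 0 and 6.27 in CTX-HC 30 DPI, against 28.7, 28.0 and 8.54 in CTX-HC 2 DPI (log2 fold change -3.38, SE 0.97, adjusted p = 0.0457). Its values are low, so its fitted fold change depends on the pseudocount of 1. Cdc6 had 2.65, 2.01 and 27.2 in CTX-HC 30 DPI, against 84.1, 105 and 29.8 in CTX-HC 2 DPI (log2 fold change -3.27, SE 0.82, adjusted p = 0.0312). Pcna had 357, 327 and 346 in CTX-HC 30 DPI, against 969.8, 609 and 561 in CTX-HC 2 DPI (log2 fold change -1.01, SE 0.21, adjusted p = 0.0168). Pcna was the called gene with the smallest fold change and the smallest error. Ccne1 had 4.56, 6.09 and 21.4 in CTX-HC 30 DPI, against 75.3, 56.4 and 38.4 in CTX-HC 2 DPI (log2 fold change -2.54, SE 0.73, adjusted p = 0.0463). The groups did not overlap for 20 of the 44 genes, all lower at 30 DPI, against 13.3% of all genes, and 37 were lower at an unadjusted p of 0.05, against 15.8%.

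The count of 15 also depended on settings and on single libraries. It was 0 with only the 2 groups fitted, 26 after quantile normalization and 5 with no limit on low values. Library CTX-HC 62 stood above its group: its levels relative to the mean of 15 libraries were 0.78 for G1, 0.48 for S phase and 0.92 for G2 and mitosis, where libraries 63 and 61 were at -0.60 and -1.16, at -0.94 and -1.10, and at -1.91 and -2.22. It had a sum of the 6 macrophage markers of 3967, against 715 and 751 in 63 and 61, and a sum of the 5 lymphocyte markers of 3187, against 14 or less in every C and 2 DPI library. In CTX 30 DPI the macrophage sums were 507 to 4779 and the lymphocyte sums 1.06 to 106. Levels of G2 and mitosis there were -2.30 to -0.65. The part of these cells was not tested. Without CTX-HC 62, 35 genes fell. The count was 0 without CTX-HC 58, 1 without CTX-HC 59, 0 without CTX-HC 63, 0 without CTX-HC 61 and 21 without CTX-HC 60, and without CTX-HC 62 and CTX 57 together 36 fell and 1 rose, Rrm1.

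In mice on plain diet the same period gave 0 called genes of 44 by limma, with 26 lower at an unadjusted p of 0.05 (10.8% of all genes), where 0.214% of all genes were called lower and 0.0428% higher. Medians were -0.70, -1.0 and -2.61 for G1, S phase and G2 and mitosis, beside -1.52, -1.96 and -3.26 in mice given HC. The groups did not overlap for 24 genes lower at 30 DPI, against 12.2% of all genes, and for Ccne2 and Rrm1, which were higher, against 14.5%. Cdk1 had 12.1, 3.33 and 3.29 in CTX 30 DPI replicates 1, 2 and 3, against 59.4, 94.4 and 29.5 in CTX 2 DPI 55, 56 and 57 (log2 fold change -3.16, SE 1.10, adjusted p = 0.155). Aurkb (log2 fold change -3.94, SE 1.15, adjusted p = 0.124) and Cdc20 (log2 fold change -3.64, SE 1.09, adjusted p = 0.127) were furthest in mitosis, Cdt1 in S phase (log2 fold change -2.83, SE 0.95, adjusted p = 0.148) and E2f1 in G1 (log2 fold change -2.26, SE 0.99, adjusted p = 0.217). Without CTX 57 and CTX-HC 62 together 12 genes fell, and without any 1 library of the 2 groups 0. Whether the fall differed between the diets was tested as an interaction, which called 0 of the 44 and 0% of all genes, with 1 of the 44 (Pcna) lower at an unadjusted p of 0.05, against 0.912% of all genes. Without CTX 57 and CTX-HC 62 the interaction called 0 as well. The interaction of Cdk1 was -1.29 (SE 1.55, adjusted p = 0.999, 95% interval -4.63 to 2.06), which leaves differences of several fold in either direction within the interval.

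**Figure D5:**
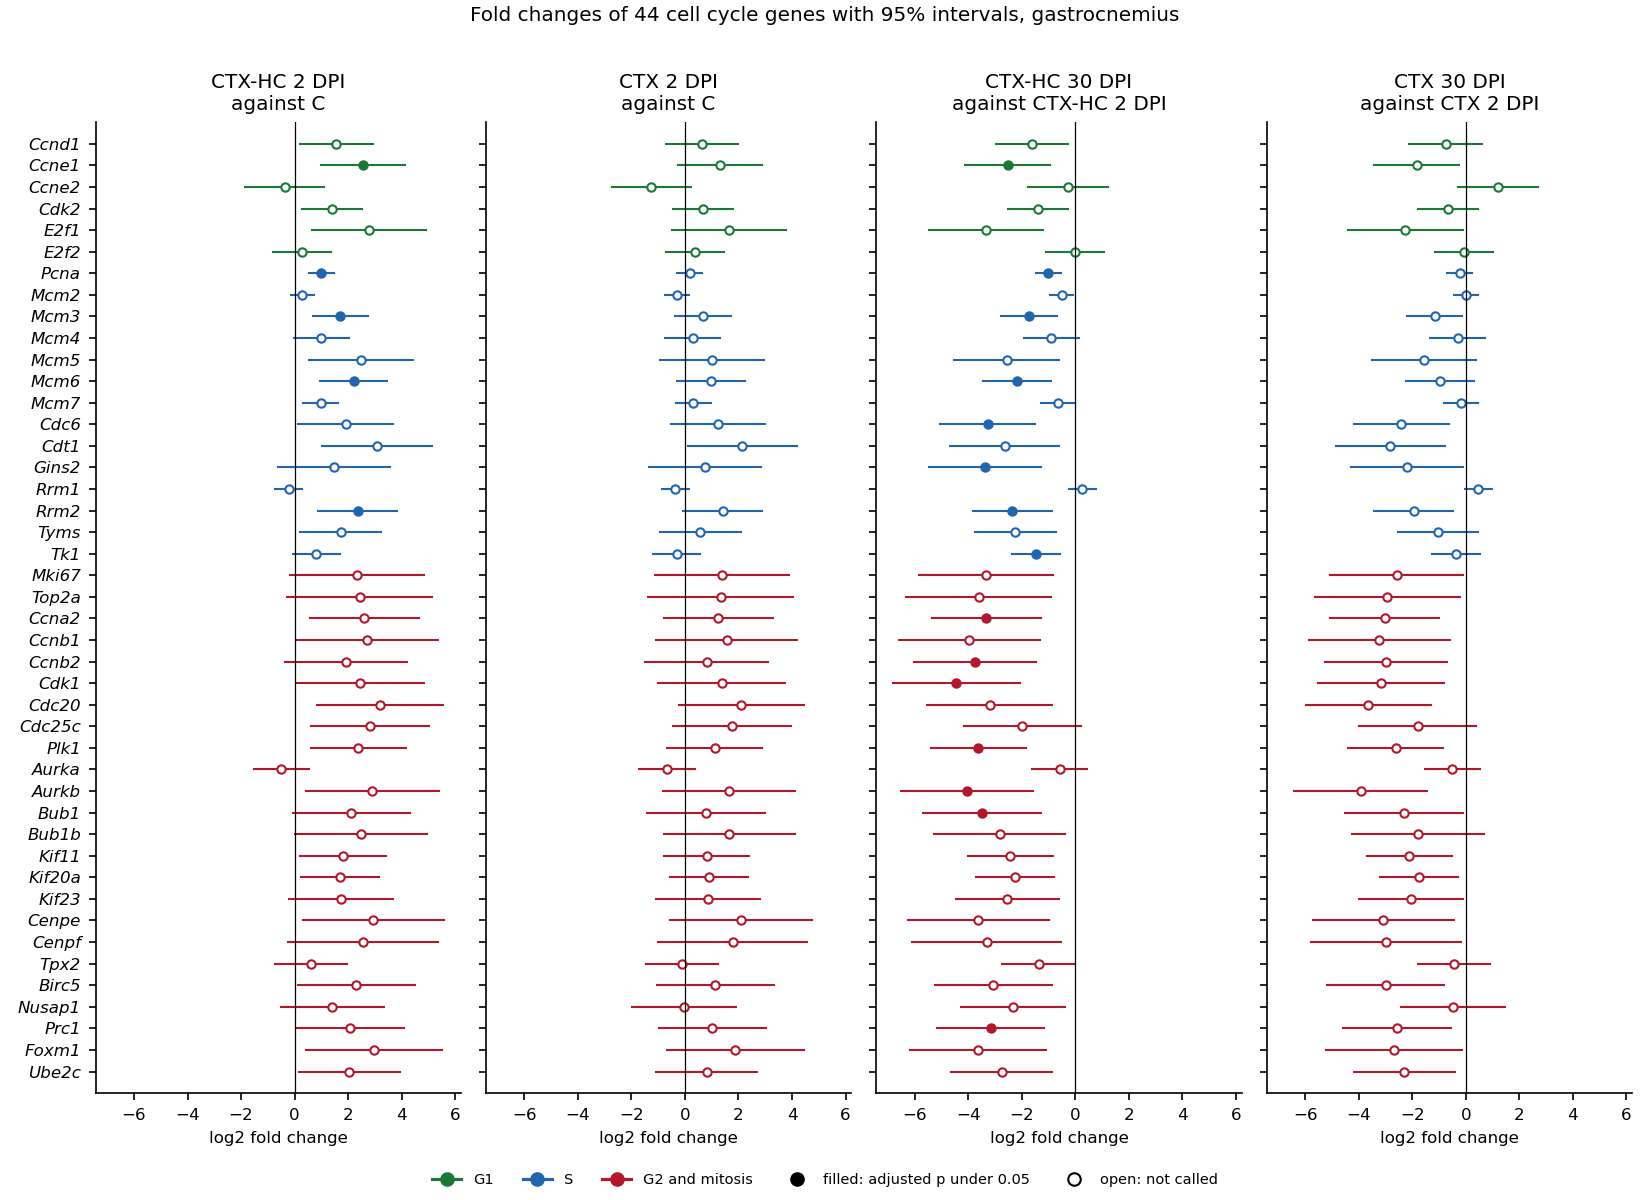
Log2 fold change with its 95% interval (x axis) of the 44 genes (y axis) in 4 gastrocnemius comparisons, coloured by stage, with called genes filled. CTX-HC 2 DPI against C has 5 filled points, all right of 0, and CTX-HC 30 DPI against CTX-HC 2 DPI has 15, all left of 0; the CTX panels have none.

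At 30 DPI the genes were compared with uninjured muscle and between diets. Limma called 0 of the 44 in CTX-HC 30 DPI against C and 0 in CTX 30 DPI against C, with 1 lower at an unadjusted p of 0.05 in each (Aurka), against 1.22% and 1.5% of all genes, and 0% of all genes called. In CTX 30 DPI against C all 24 genes of G2 and mitosis had a lower mean, with a median of -1.39, and in CTX-HC 30 DPI 23 of 24, with a median of -0.79. Aurka had 93.6, 254 and 49.6 in CTX-HC 30 DPI and 72.8, 106 and 126 in CTX 30 DPI, against 249, 238 and 194 in C (CTX 30 DPI against C, log2 fold change -1.18, SE 0.48, adjusted p = 1). All 3 CTX 30 DPI libraries lay below C for Aurka and for Plk1, against 5.77% of all genes. CTX-HC 30 DPI against CTX 30 DPI gave 0 called by limma, with 0% of all genes called, and medians of 0.01, 0.05 and 0.38. At an unadjusted p of 0.05 it gave 0 of the 44, against 106 of the 14033 genes tested. Mki67 had 45.1, 16.9 and 374 in CTX-HC 30 DPI, against 172, 21.1 and 53.2 in CTX 30 DPI, and both groups held 1 library well above the other 2. Without CTX 57 and CTX-HC 62 the 3 comparisons at 30 DPI again called 0, with a median of G2 and mitosis of -1.87 in CTX-HC 30 DPI against C. In CTX-HC 30 DPI against CTX 30 DPI the medians were then -0.44, -0.11 and -0.59, below 0 where they had been above it.

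Regulators outside the 44 were read in the same 2 comparisons, in which single libraries decided the counts of the 44. In CTX-HC 2 DPI against C, where 5.34% of all genes were called higher and 4.59% lower, Myc, a growth factor response gene (log2 fold change 2.16, SE 0.58, adjusted p = 0.0406), and Cdk4, the cyclin D kinase (log2 fold change 1.06, SE 0.21, adjusted p = 0.0188), were the 2 of 10 other G1 regulators that rose. Of 25 other replication genes 4 rose, led by Chaf1a, a chromatin assembly factor (log2 fold change 1.66, SE 0.46, adjusted p = 0.0428), and Dnmt1 (log2 fold change 1.44, SE 0.42, adjusted p = 0.0477). Of 32 other mitotic genes Spc25 rose (log2 fold change 2.24, SE 0.65, adjusted p = 0.0473) and Pttg1, the securin, fell (log2 fold change -0.87, SE 0.25, adjusted p = 0.0473), and of 10 CDK inhibitors and pocket proteins Rbl2 fell (log2 fold change -0.82, SE 0.20, adjusted p = 0.0314). In CTX-HC 30 DPI against CTX-HC 2 DPI, with 4.2% of all genes called higher and 5.54% lower, the pocket protein gene Rbl2 (log2 fold change 0.98, SE 0.20, adjusted p = 0.0148) and the inhibitors Cdkn1b (0.76), Cdkn2b (1.10) and Cdkn1c (log2 fold change 1.92, SE 0.50, adjusted p = 0.034) rose, while Mybl2 (log2 fold change -3.70, SE 1.00, adjusted p = 0.0392), Myc (log2 fold change -2.29, SE 0.58, adjusted p = 0.0329) and Cdk4 (-1.05) fell. Of the mitotic list Melk (log2 fold change -4.14, SE 1.05, adjusted p = 0.0328) and Espl1 (log2 fold change -3.85, SE 0.99, adjusted p = 0.0337) fell furthest, and of the replication list Mcm10 (log2 fold change -3.81, SE 0.78, adjusted p = 0.0146) and Orc1 (-2.61). Cdkn1a had 3287, 1692 and 1825 in CTX-HC 2 DPI, 4622, 3504 and 1064 in CTX 2 DPI, 580.2, 812 and 2360.2 in CTX-HC 30 DPI and 1068, 1610.5 and 529.8 in CTX 30 DPI, against 1105, 796 and 1694 in C, and was called in none of these comparisons.

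In liver and soleus of uninjured mice most of the mitotic genes had low values, and none of the genes tested was called between HC and Ut. In liver 17 of the 44 genes were tested, 4 of G1, 12 of S phase and Birc5, which encodes survivin. Limma called 0 of 17 and 0% of all genes in liver HC against liver Ut, with 1 of the 17 higher at an unadjusted p of 0.05, against 2.15% of all genes. That gene was Ccnd1, with 181 to 522 (median 259) in liver HC, against 72.9 to 171 (median 132) in liver Ut (log2 fold change 1.13, SE 0.28, adjusted p = 0.995, 95% interval 0.52 to 1.73). All 5 HC livers lay above all 5 Ut livers, against 0.322% of all genes, and the adjusted p did not pass. The other anchors overlapped. Pcna had 194 to 236 (median 210.2) in liver HC, against 144 to 221 (median 189) in liver Ut (log2 fold change 0.15, SE 0.12, adjusted p = 0.995). Mcm5 was furthest in S phase (log2 fold change 0.54, SE 0.34, adjusted p = 0.995), Mcm4 next (log2 fold change 0.42, SE 0.27, adjusted p = 0.995). Birc5 had 6.15 to 27.9 (median 10.3) in liver HC, against 4.86 to 15.9 (median 11.6) in liver Ut. Of the genes not tested, all with low values, Mki67 had 4.06 to 15.4 (median 9.66) in liver HC, against 4.57 to 15.8 (median 4.87) in liver Ut, and Ccnb1 had 0 to 4.14 (median 0.979) in liver HC, against 0 to 0.982 (median 0) in liver Ut.

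Although only 1 of the 24 genes of G2 and mitosis was tested in liver, 23 of the 24 had a higher mean in liver HC than in liver Ut, Aurka being the exception. Their level relative to the mean of 10 livers was -0.24 to 1.03 (median 0.21) in liver HC, against -0.47 to -0.03 (median -0.29) in liver Ut, with overlap. Ccnb2 had 2.03 to 5.81 (median 2.84) in liver HC, against 0 to 1.95 (median 1.06) in liver Ut, without overlap, at a few reads a library. The highest level was that of liver HC replicate 4, which also had Myc at 507, against 75.3 or less in each other liver, and the fibroblast marker Col3a1 at 733, against 203 or less. Their part in these values was not tested. In soleus 15 of the 24 had a higher mean on the log2(value + 1) scale in HC and 8 a lower mean. Levels were -0.25 to 0.73 in soleus HC, against -0.29 to 0.33 in soleus Ut.

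In soleus 12 genes were tested, 3 of G1, 8 of S phase and Bub1b, a checkpoint kinase. Limma called 0 of 12 and 0% of all genes in soleus HC against soleus Ut, with 1 of the 12 higher at an unadjusted p of 0.05, Pcna, against 3.04% of all genes. Pcna had 309 to 373 (median 329) in soleus HC, against 270.1 to 322 (median 279.8) in soleus Ut (log2 fold change 0.21, SE 0.08, adjusted p = 0.966), and 1 HC library lay below the highest Ut library. Ccnd1 had 139.9 to 335 (median 293) in soleus HC, against 131 to 316 (median 143) in soleus Ut (log2 fold change 0.49, SE 0.28, adjusted p = 0.99), with overlap. Rrm2 had 21.7 to 63.2 (median 29.1) in soleus HC, against 36.1 to 51.8 (median 43.5) in soleus Ut (log2 fold change -0.45, SE 0.25, adjusted p = 0.99). In HC 4 of the 5 soleus libraries lay below all Ut libraries for Rrm2 and 1 lay above them. Mki67 had 1.11 to 7.24 (median 5.56) in soleus HC, against 0 to 3.17 (median 1.68) in soleus Ut, and Cdc25c, the phosphatase that activates Cdk1, was at 0 in all 10 soleus libraries. RNA of other tissues was visible in some libraries: the 5 hepatocyte markers summed to 23.5 to 774 in soleus HC, against 236 to 1499 in soleus Ut, and the 4 fast fiber markers to 0 to 3.08 in liver HC, against 0 to 206 in liver Ut. Their part in these values was not tested. Cdkn1a had 29.7 to 493 (median 86.8) in liver HC, against 13.6 to 219 (median 176) in liver Ut, and 553 to 1028 (median 709) in soleus HC, against 358 to 1016 (median 740.2) in soleus Ut.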

How the data were processed

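RNA-seq was read from 24 AML12, 15 gastrocnemius, 10 liver and 10 soleus libraries. Per the labels and methods, the authors aligned reads to mm10 with STAR and deposited one signal value per gene and library: counts divided by the size factor of DESeq2's median of ratios, so whole reads were not recovered and no count test was run. On log2(value + 1), limma 3.58.1 with a mean trend (R 4.3.3) was fitted over all groups of a table, for genes of at least 10 in 3 libraries (5 in liver and soleus), which left 12296, 14033, 11497 and 12067 genes, with Benjamini-Hochberg adjustment over them. Precision is limited by the 3 or 5 libraries a group and by the depth. The script was tested on simulated data. Named genes were 9 anchors and, per comparison and stage, up to 2 of largest change among the called or, with none, among all. The members, lists and tests were chosen with earlier results of these data known. Alternatives were pseudocount, limit on low values, normalization, threshold, samples fitted, number series, replicate block and leaving out libraries. The order of libraries with numbers, and the libraries called doubtful, were examined after seeing the data.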

Additional observations from a re-analysis of the deposited data

Results flagged for a closer look

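In 62 gene-and-group sets of 5 libraries in liver and soleus, 4 held a library far from the other 4, where chance flags about 1 in 20 sets. Rrm1, the large ribonucleotide reductase subunit, was 96.3 in liver Ut replicate 5, against 55.2 to 61.3 in the other liver Ut libraries. That library also held the fast fiber marker sum of 206, against 3.08 or less in every other liver. Ccnd1 was 316 in soleus Ut replicate 5, against 131 to 179 in the other soleus Ut libraries. Mcm7, a helicase subunit, was 136 in soleus Ut replicate 4, against 84.2 to 95.9 in the others. Rrm2 was 63.2 in soleus HC replicate 5, against 21.7 to 30.9 in the others of that group.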

How the results depend on the processing

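Counts are of the 44 genes called. The shares of all genes called under these alternatives, here and where they are used above, are not given. The counts therefore show how the calls depend on the setting and cannot be read as particular to the 44 genes. By the study's threshold, an unadjusted p under 0.05 and a log2 fold change of 1 or more in size, the count was 2 for siAcly Ut against siC Ut, 4, 6 and 4 for siAcly HC, SB and Bemp against siAcly Ut, 4 for the SB interaction, 2 for the number series (Ccne1 and Mcm5), 26 for CTX-HC 2 DPI and 1 for CTX 2 DPI against C, 2 for CTX-HC 2 DPI against CTX 2 DPI, 1 each for CTX-HC 30 DPI and CTX 30 DPI against C, 36 for CTX-HC 30 DPI against CTX-HC 2 DPI, 26 for CTX 30 DPI against CTX 2 DPI and 1 for liver. The mean of siAcly against siC over 4 treatments gave 4 (Aurka, Cdk1, E2f1 and Ube2c) with the number series and the remainder of the number on division by 3 as covariates. The remainder was noticed from the levels of these genes, so that count is only a description.

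For CTX-HC 2 DPI against C, 5 as fitted, the count was 2 with no limit on low values, 12 after quantile normalization, 15 with only these 2 groups fitted, 0 with the number series as a covariate, 0 in the libraries 50 to 63 alone, 21 without CTX 57 and CTX-HC 62, and 0 to 10 without any 1 library. For CTX-HC 30 DPI against CTX-HC 2 DPI, 15 as fitted, it was 5, 26 and 0 under the first 3 of these, 37 without CTX 57 and CTX-HC 62, and 0 to 35 without any 1 library. CTX 30 DPI against CTX 2 DPI gave 12 without CTX 57 and CTX-HC 62. The causes were not tested. Of the single called genes under all alternatives, 158 gene-and-setting values lost the call and 0 changed sign. For CTX-HC 2 DPI against C, 37 lost the call and 28 kept it. For CTX-HC 30 DPI against CTX-HC 2 DPI, 86 lost it and 106 kept it, and for the number series 35 lost it and 637 kept it.

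In liver and soleus the replicate numbers are shared between HC and Ut, and deviations of the same number correlated at 0.0243 to 0.0833 in liver and -0.112 to 0.403 in soleus. These correlations cannot show whether the numbers pair the mice, and the main fit did not use them as pairs. With a replicate block 0 genes were called in either tissue.

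The depth of 7.31 to 34.9 M reads and the 3 or 5 libraries a group set the precision. Most mitotic genes of liver and soleus had low values, so small changes there were not detectable at this depth.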

Other observations

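Within the AML12 libraries numbered 1 to 23, the level of the G1 and S phase genes also differed by the remainder of the number on division by 3, which was noticed after seeing the values and is given without a test. Leaving out the 2 libraries with doubtful labels, 11 and 13, the 7 libraries with a remainder of 1 had G1 levels of -0.06 to 0.17 and S phase levels of -0.02 to 0.11 on the log2 scale, relative to the mean of the 24 libraries. The 7 with a remainder of 2 had G1 levels of -0.69 to -0.25 and S phase levels of -0.57 to -0.10. The 2 sets did not overlap in G1 or S phase, whereas in G2 and mitosis their levels ran from 0.00 to 0.14 and from -0.47 to 0.09. Library 13 had levels of -0.44 in G1 and -0.64 in S phase, and library 11 had 0.10 and -0.06. Library 15, with a remainder of 0, stood alone at -0.77, -1.03 and -1.82.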
